A study of Arabidopsis thaliana with 24 samples.

Results

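The genes that drive and brake the plant cell cycle were followed across 4 genotypes of Arabidopsis thaliana seedlings. They are the 38 genes, of 33612 in the count table, whose identifiers belong to the A-, B- and D-type cyclins, the cyclin-dependent kinases (CDKs) of the A and B classes, and the KIP-related proteins (KRPs), which bind and inhibit cyclin-CDK complexes. By role they were 10 D-type cyclins of the G1 phase, 2 A3-type cyclins of S phase, 18 mitotic genes (the A1, A2 and B cyclins and the B-class CDKs), 1 A-class CDK and 7 KRPs. RefSeq pairs each identifier with a name of that family. Whole 9-day-old seedlings were used, with 3 biological replicates of each genotype, namely pkl (labelled pkl-1), pif4 (no allele named in the labels), pklpif4 (labelled pkl-1pif4) and the wild type (WT). PKL encodes a CHD3-family chromatin remodeller that keeps seed genes silent after germination, and PIF4 a transcription factor that promotes growth in warmth. The labels name no further allele or agent, and no source used here gives the ecotype. The number 28 in the library names was taken as 28 °C, in continuous white light, and nothing else ties the libraries to that temperature. Tables named for red light hold the same values. The light and temperature of the plants therefore rest on the names alone.

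In plants, a D-type cyclin pairs with the A-class CDK in G1 and phosphorylates the retinoblastoma-related protein, which frees E2F factors and lets a cell enter S phase. B-type cyclins and B-class CDKs are made from G2 into mitosis, when MYB3R factors act on their genes through a short promoter sequence, the MSA element. KRPs hold cyclin-CDK complexes inactive, and a cell that stops dividing may go on copying its DNA in endocycles. In RNA from whole seedlings, fewer cells of a type and less RNA per cell cannot be told apart.

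Library totals ran from 37762216 to 56492669 counts, and 38 of the 38 genes passed the filter on low counts. The transcript of PIF4 was higher than in WT in libraries labelled pif4 or pklpif4, so its level does not check those labels. It stood at 178, 172 and 172 CPM (counts scaled to library size with TMM factors, called normalised CPM below) in pif4-labelled libraries and at 149, 149 and 147 in pklpif4-labelled libraries, against 105, 99.996 and 96.0 in WT libraries. Every direction given below for the libraries labelled pif4 or pklpif4 therefore rests on their labels. In pkl libraries PIF4 stood at 68.4, 66.4 and 62.5 normalised CPM, below every WT library. PKL averaged 103 normalised CPM in pkl, 91.8 in pif4-labelled, 104 in pklpif4-labelled and 97.3 in WT libraries, a level that does not check the pkl label. Directions given for pkl libraries rest on their labels too.

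Levels scaled to exon length and library size (FPKM) ran from abundant to barely detected. In WT libraries the order began with CYCD3;2, a D-type cyclin that keeps young shoot tissue dividing, at 67.7 ± 1.09 FPKM (SD, n = 3). CDKA;1, the kinase that works throughout the cycle, followed at 49.4 ± 1.26 FPKM and KRP4 at 23.8 ± 0.22 FPKM. The highest mitotic gene was CDKB2;1 at 8.41 ± 0.95 FPKM. The lowest pair was CYCD7;1, a cyclin of the guard cell lineage, at 0.165 ± 0.077 FPKM and CYCA2;1 at 0.164 ± 0.055 FPKM. Of the 37 pairs of neighbours in that order, 26 had overlapping ranges over the WT libraries and 11 stood apart, among them the first 6 steps.

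**Figure D1:**
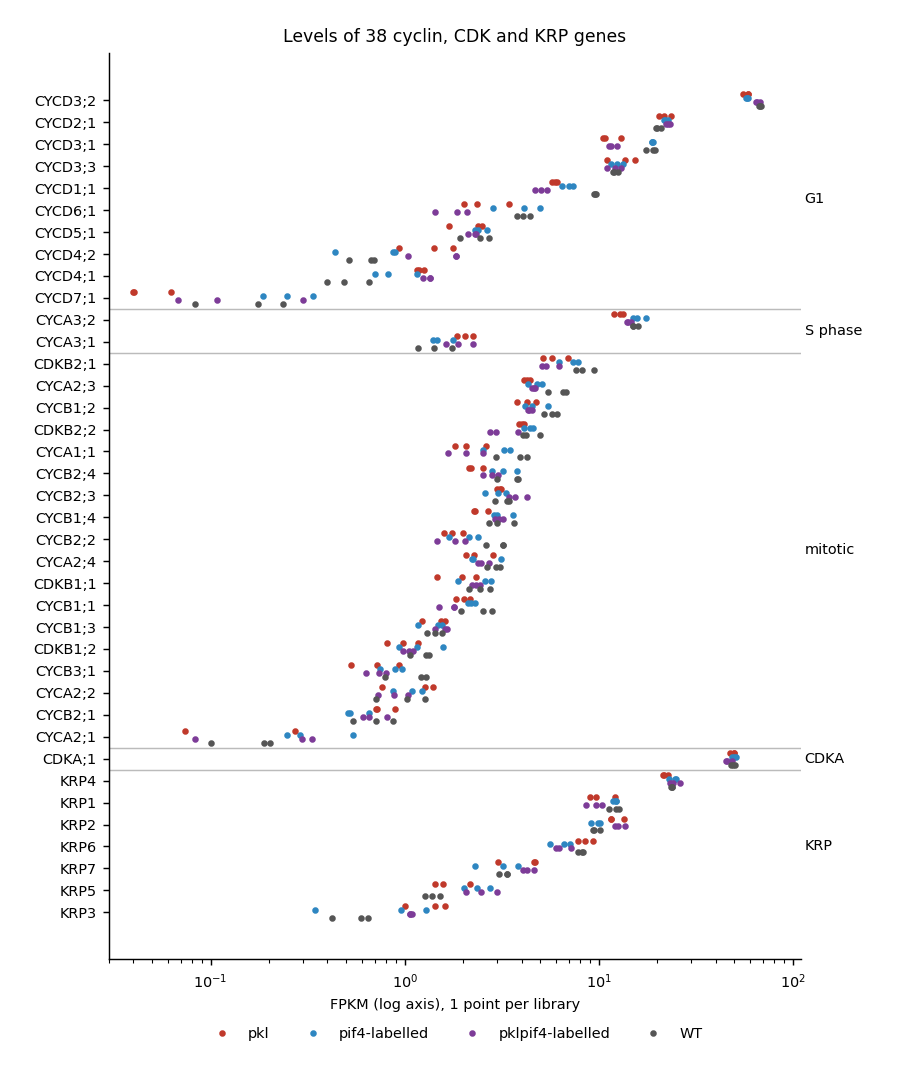
FPKM of each member (log axis), with 1 point per library and genes grouped by class and ordered by their WT mean. CYCD3;2 and CDKA;1 stand highest in the 4 genotypes. A pkl library without a count of CYCA2;1 is not drawn.

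The 10 D-type cyclins together summed to 118 ± 4.20 FPKM in pkl, 127 ± 2.75 in pif4-labelled, 125 ± 2.63 in pklpif4-labelled and 136 ± 1.85 in WT libraries (SD, n = 3 each). The 18 mitotic genes together summed to 41.9 ± 1.56 FPKM in pkl, 48.2 ± 1.2999 in pif4-labelled, 43.0 ± 0.73 in pklpif4-labelled and 54.9 ± 1.53 in WT libraries. Both sums were lower in every mutant library than in every WT library. The ratio of the G1 to the mitotic sum was 2.81 ± 0.14 in pkl, 2.63 ± 0.07 in pif4-labelled, 2.90 ± 0.09 in pklpif4-labelled and 2.48 ± 0.08 in WT libraries. That ratio lay above the WT range in every pkl and pklpif4-labelled library, while the pif4-labelled range (2.56 to 2.69) overlapped the WT range (2.42 to 2.57). The 7 KRPs summed to 60.2 ± 0.58 FPKM in pkl, 58.8 ± 0.83 in pif4-labelled, 61.3 ± 3.12 in pklpif4-labelled and 58.9 ± 1.07 in WT libraries, and each mutant's range overlapped that of WT.

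Against WT, 4 of the 38 genes were higher and 15 lower in pkl at an adjusted p under 0.05 (edgeR, adjusted over the 22130 genes tested). Of all genes tested in that comparison, 27.1% were higher, 26.5% lower and 53.6% called in either direction. The number of the 38 that changed was thus close to the background, with more of them lower than higher. In pif4-labelled libraries 2 were higher and 6 lower, where 16.2% of all genes were higher, 16.2% lower and 32.5% called. In pklpif4-labelled libraries 6 were higher and 15 lower, where 27.2% of all genes were higher, 27.7% lower and 54.8% called. The median log2 change of the 38 was -0.30 in pkl, -0.04 in pif4-labelled and -0.12 in pklpif4-labelled libraries, beside medians over all genes of 0.00060 in pkl, 0.00014 in pif4-labelled and -0.0019 in pklpif4-labelled libraries. These comparisons share their WT libraries. With plain library totals in place of TMM factors, higher genes made up 62.0% of all calls in pkl and 61.2% in pif4-labelled libraries, where TMM gave 50.5% in pkl and 50% in pif4-labelled libraries, and the 38 genes then gave 4 higher and 14 lower in pkl and 2 higher and 5 lower in pif4-labelled libraries.

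The G1 and mitotic classes differed in how their members were spread. No mitotic gene passed the test as higher in a mutant against WT, and 8 of 18 were lower in pkl, 3 in pif4-labelled and 9 in pklpif4-labelled libraries. Their median log2 change was -0.43 in pkl, -0.18 in pif4-labelled and -0.31 in pklpif4-labelled libraries. Of the 10 D-type cyclins, 2 were higher and 4 lower in pkl, 1 higher and 2 lower in pif4-labelled and 3 higher and 3 lower in pklpif4-labelled libraries. The median of the D-type class was -0.24 in pkl, 0.01 in pif4-labelled and -0.08 in pklpif4-labelled libraries. Of all genes tested, 27.1% were higher and 26.5% lower in pkl, 16.2% and 16.2% in pif4-labelled, and 27.2% and 27.7% in pklpif4-labelled libraries. The 3 mitotic genes lower in pif4-labelled libraries were thus near the background share, and so were the D-type counts. The class medians of single pkl libraries overlapped. As log2 differences from the WT mean they were -0.12, -0.23 and -0.44 for D-type cyclins. For mitotic genes they were -0.47, -0.42 and -0.32. The difference between the classes is a description, since genes are not replicates.

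**Figure D2:**
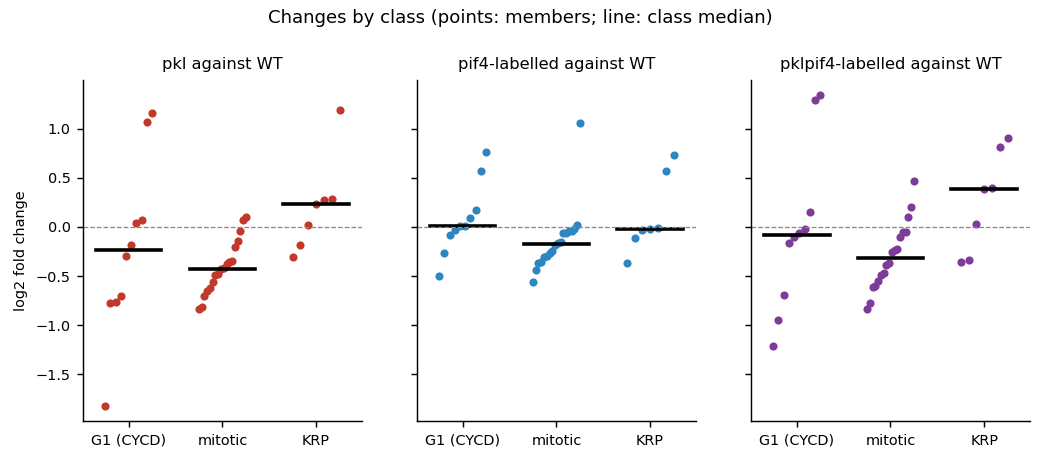
Log2 fold change against WT of each D-type cyclin, mitotic gene and KRP in the 3 mutants, with the class median as a line and 0 dashed. Mitotic genes lie mostly below 0, and D-type cyclins and KRPs lie on both sides. The lowest D-type point in pkl is the scarce CYCD7;1, which missed the threshold.

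**Figure D3:**
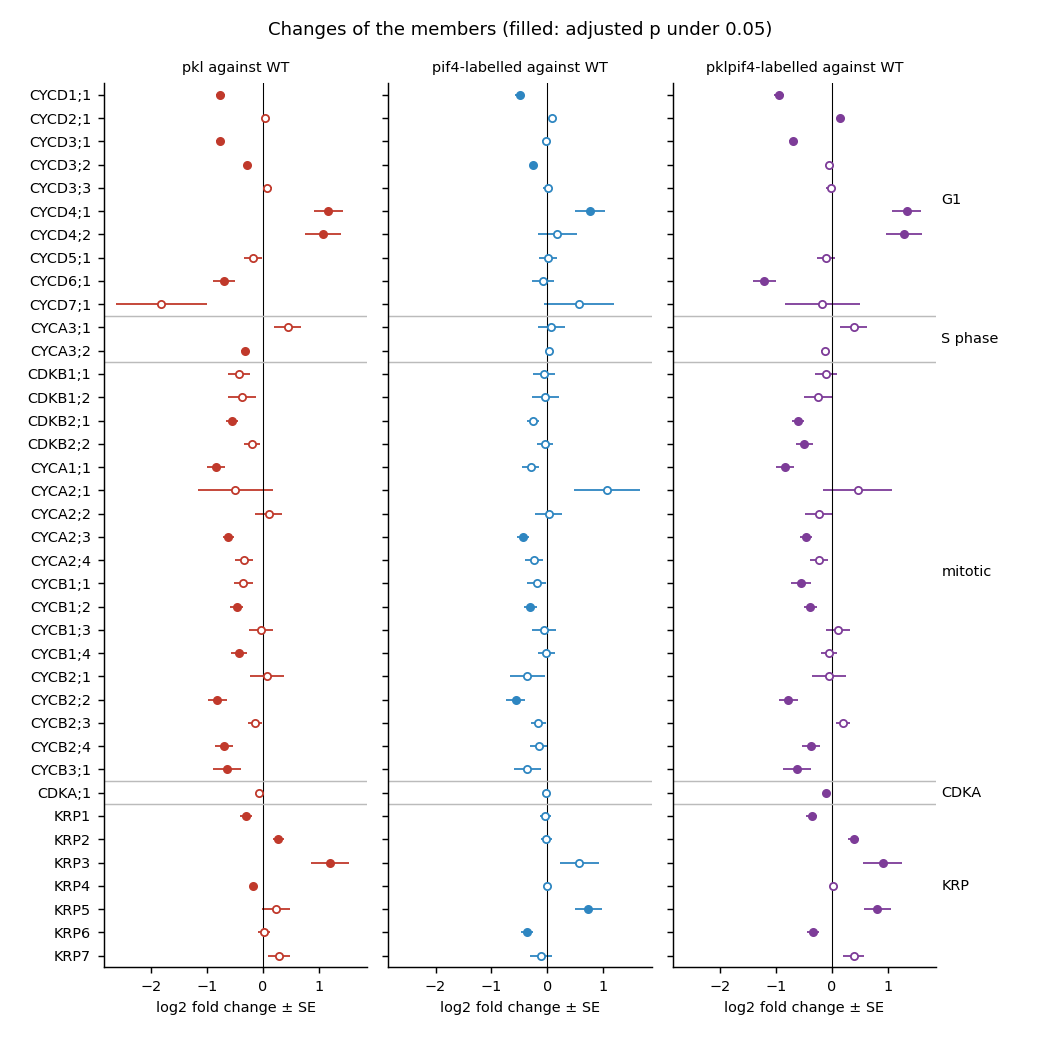
Log2 fold change with its SE for the 38 genes in pkl, pif4-labelled and pklpif4-labelled libraries against WT, grouped by class. Filled points passed an adjusted p of 0.05. In pkl, 19 points are filled, and the widest SEs belong to CYCD7;1 and CYCA2;1.

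Among the D-type cyclins, CYCD1;1 (AT1G70210, chr1:26439864-26442829 on TAIR10) was lower in all 3 mutants. This cyclin is active early in germination. It had 11.3, 11.7 and 11.98 normalised CPM in pkl, 14.2, 13.0 and 14.8 in pif4-labelled, 11.1, 9.51 and 10.2 in pklpif4-labelled and 19.9, 20.07 and 19.4 in WT libraries. Every mutant library lay below every WT library. The fitted log2 change was -0.76 ± 0.08 (SE) in pkl (adjusted p = 1.08e-13), -0.50 ± 0.08 in pif4-labelled (3.61e-07) and -0.95 ± 0.09 in pklpif4-labelled libraries (6.03e-18).

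The 3 D3-type cyclins act together in young leaves and the shoot, where they prolong division and delay endocycles, yet their transcripts moved differently. CYCD3;1 (AT4G34160, chr4:16357639-16359555), a gene that responds to cytokinin, had 20.9, 16.95 and 17.3 normalised CPM in pkl, 30.7, 31.2 and 30.7 in pif4-labelled, 19.1, 18.6 and 20.7 in pklpif4-labelled and 32.2, 32.7 and 29.6 in WT libraries. The pkl and pklpif4-labelled libraries lay apart from all the others, and the pif4-labelled range fell inside that of WT. On the log2 scale the change was -0.77 ± 0.07 in pkl (adjusted p = 5.78e-19), -0.70 ± 0.07 in pklpif4-labelled (1.19e-16) and -0.03 ± 0.06 in pif4-labelled libraries (0.785). Against pif4-labelled libraries, the pklpif4-labelled ones were lower by a log2 change of -0.67 ± 0.07 (1.18e-15).

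CYCD3;2 (AT5G67260, chr5:26836148-26837811) instead dipped in each single mutant. It had 81.3, 81.4 and 76.4 normalised CPM in pkl, 81.8, 80.7 and 82.5 in pif4-labelled, 96.8, 92.4 and 93.0 in pklpif4-labelled and 99.6, 96.5 and 97.5 in WT libraries. The pklpif4-labelled range touched that of WT, and both single mutants lay below both. As a log2 change this was -0.30 ± 0.04 in pkl (adjusted p = 5.23e-12), -0.26 ± 0.04 in pif4-labelled (1.03e-09) and -0.06 ± 0.04 in pklpif4-labelled libraries (0.167). It made up 49.1 ± 2.56% of the D-type FPKM in pkl, 45.8 ± 0.54% in pif4-labelled, 52.9 ± 1.026% in pklpif4-labelled and 49.7 ± 0.86% in WT libraries. The remaining member of the trio, CYCD3;3, ran from 14.9 to 20.7 normalised CPM over the 12 libraries, and none of its changes passed the test (log2 0.07 ± 0.08 in pkl).

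Both D4-type cyclins were higher in pkl and in pklpif4-labelled libraries. These cyclins act in stomatal lineage divisions of the hypocotyl and, for CYCD4;1, in lateral root initiation. CYCD4;1 (AT5G65420, chr5:26141470-26143993) had 2.01, 2.13 and 1.98 normalised CPM in pkl, 1.43, 1.22 and 2.01 in pif4-labelled, 2.20, 2.36 and 2.37 in pklpif4-labelled and 0.868, 0.713 and 1.16 in WT libraries. Every mutant library lay above every WT library. Its log2 change was 1.16 ± 0.26 in pkl (adjusted p = 6.83e-05), 0.76 ± 0.27 in pif4-labelled (0.0183) and 1.34 ± 0.26 in pklpif4-labelled libraries (4.31e-06). The pif4-labelled call was lost without pif4-labelled replicate 3 (0.170), WT replicate 1 (0.0620) or WT replicate 2 (0.10). CYCD4;2 (AT5G10440, chr5:3280516-3282411) had 1.84, 0.971 and 1.47 normalised CPM in pkl, 0.941, 0.464 and 0.918 in pif4-labelled, 1.12, 1.95 and 1.96 in pklpif4-labelled and 0.724, 0.560 and 0.757 in WT libraries. The pif4-labelled range overlapped that of WT and the others did not. The fitted log2 change was 1.07 ± 0.32 in pkl (0.00333), 0.18 ± 0.34 in pif4-labelled (0.756) and 1.29 ± 0.32 in pklpif4-labelled libraries (0.000364). The pkl call was lost without pkl replicate 1 (0.0517).

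CYCD6;1 (AT4G03270, chr4:1432375-1433691) is switched on by the root factors SHR and SCR for the division that forms the ground tissue layers. It had 3.06, 1.80 and 2.09 normalised CPM in pkl, 3.74, 2.57 and 4.52 in pif4-labelled, 1.32, 1.70 and 1.93 in pklpif4-labelled and 3.76, 4.13 and 3.51 in WT libraries. The pkl and pklpif4-labelled libraries lay below every WT library. On the log2 scale the change was -0.70 ± 0.20 in pkl (adjusted p = 0.00151), -0.08 ± 0.19 in pif4-labelled (0.805) and -1.21 ± 0.21 in pklpif4-labelled libraries (2.51e-07). Its upstream factors, singled out after their values were seen, did not share one pattern. SHR changed by a log2 of -0.43 ± 0.09 in pkl (2.48e-05), 0.23 ± 0.09 in pif4-labelled (0.0293) and 0.02 ± 0.09 in pklpif4-labelled libraries (0.890). SCR changed by 0.08 ± 0.05 in pkl (0.115), 0.15 ± 0.05 in pif4-labelled (0.00594) and 0.28 ± 0.05 in pklpif4-labelled libraries (8.57e-08). Their part in the level of the cyclin was not tested.

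The last 3 D-type cyclins changed little or were scarce. The sugar-responsive CYCD2;1 ran from 34.0 to 40.4 normalised CPM over the 12 libraries and rose in pklpif4-labelled libraries alone among the mutants against WT, by a log2 of 0.15 ± 0.05 (adjusted p = 0.0116, and 0.0547 without WT replicate 1). CYCD5;1 ran from 2.65 to 4.47 normalised CPM with no call. CYCD7;1 had 0.0737, 0.0473 and 0.0465 normalised CPM in pkl, 0.406, 0.295 and 0.223 in pif4-labelled, 0.132, 0.0820 and 0.365 in pklpif4-labelled and 0.289, 0.102 and 0.216 in WT libraries. Its pkl libraries lay below every WT library, with a log2 change of -1.82 ± 0.81 that missed the threshold (0.0505).

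**Figure D4:**
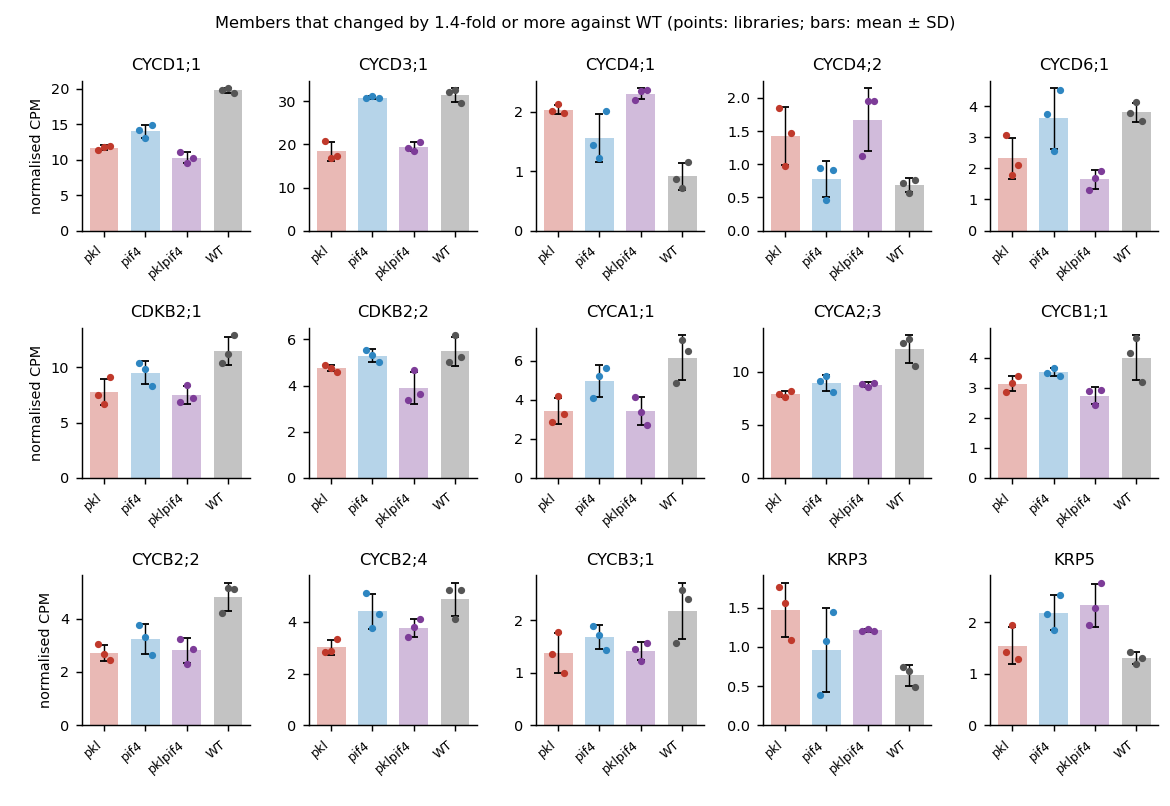
Normalised CPM in every library (points) with the mean and SD (bars) for the 15 members that passed the test with a change of at least 1.4-fold against WT. In each panel the groups are pkl, pif4-labelled, pklpif4-labelled and WT. CYCD1;1 is lower in the 3 mutants, CYCD4;1 is higher in them, and CYCD3;1 is lower in pkl and pklpif4-labelled libraries.

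The A3-type cyclins and the A-class kinase changed by small amounts. CYCA3;2, a cyclin of S phase, had 18.7, 17.4 and 19.5 normalised CPM in pkl, 22.3, 23.3 and 26.1 in pif4-labelled, 22.0, 21.1 and 21.1 in pklpif4-labelled and 22.8, 23.0 and 24.2 in WT libraries. Only the pkl libraries passed the test against WT, with a log2 change of -0.33 ± 0.07 (adjusted p = 2.45e-05), although the pklpif4-labelled libraries also lay below the WT range. Its relative CYCA3;1 had log2 changes of 0.44 ± 0.24 in pkl, 0.07 ± 0.24 in pif4-labelled and 0.39 ± 0.24 in pklpif4-labelled libraries, none past the threshold. CDKA;1 ran from 64.3 to 73.3 normalised CPM over the 12 libraries. It fell in pklpif4-labelled libraries by 0.11 ± 0.04 on the log2 scale (0.016), a call that was lost without WT replicate 1 (0.0918), pklpif4-labelled replicate 2 (0.0704) or pklpif4-labelled replicate 3 (0.0879). With plain library totals the call was lost as well (0.0509).

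Of the 18 mitotic genes, 8 fell in pkl and 9 in pklpif4-labelled libraries, and the others did not pass the test. Of the 18, 16 had a log2 change below 0 in pkl, 16 in pif4-labelled and 15 in pklpif4-labelled libraries, and the calls spread over A1, A2, B1, B2 and B3 cyclins and B-class kinases. The largest drop in pkl was that of CYCA1;1 (AT1G44110, chr1:16774865-16777247). It had 2.87, 4.17 and 3.28 normalised CPM in pkl, 4.07, 5.22 and 5.63 in pif4-labelled, 4.13, 3.38 and 2.71 in pklpif4-labelled and 4.87, 7.08 and 6.51 in WT libraries. The pkl and pklpif4-labelled libraries lay below every WT library, and the pif4-labelled range overlapped. As a log2 change this was -0.84 ± 0.16 in pkl (adjusted p = 4.16e-06), -0.30 ± 0.16 in pif4-labelled (0.137) and -0.84 ± 0.16 in pklpif4-labelled libraries (4.50e-06).

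CYCA2;3 (AT1G15570, chr1:5362009-5365549), which restrains endocycles together with a B1-type CDK, fell in all 3 mutants. It had 7.90, 7.58 and 8.16 normalised CPM in pkl, 9.07, 9.59 and 8.11 in pif4-labelled, 8.81, 8.55 and 8.97 in pklpif4-labelled and 12.7, 13.0 and 10.6 in WT libraries. No mutant library reached the WT range. Its log2 change was -0.62 ± 0.10 in pkl (adjusted p = 1.73e-07), -0.44 ± 0.10 in pif4-labelled (0.000293) and -0.47 ± 0.10 in pklpif4-labelled libraries (6.12e-05). The other A2 cyclins had no call against WT, and CYCA2;1 was at 0 counts in 1 pkl library.

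Among the B-type cyclins, CYCB2;2 (AT4G35620, chr4:16901621-16903920) also fell in all 3 mutants. It had 3.04, 2.68 and 2.44 normalised CPM in pkl, 3.74, 3.33 and 2.63 in pif4-labelled, 3.25, 2.30 and 2.87 in pklpif4-labelled and 4.21, 5.14 and 5.11 in WT libraries. No mutant library reached the WT range. The fitted log2 change was -0.82 ± 0.17 in pkl (adjusted p = 2.99e-05), -0.57 ± 0.17 in pif4-labelled (0.00587, and 0.0690 without pif4-labelled replicate 3) and -0.78 ± 0.17 in pklpif4-labelled libraries (7.00e-05). CYCB2;4 (AT1G76310, chr1:28628046-28630394) had 2.82, 2.89 and 3.33 normalised CPM in pkl, 5.11, 3.77 and 4.32 in pif4-labelled, 3.43, 3.79 and 4.12 in pklpif4-labelled and 5.25, 4.13 and 5.24 in WT libraries. The pkl libraries lay well below WT, and the highest pklpif4-labelled library came close to the lowest WT one. On the log2 scale the change was -0.70 ± 0.16 in pkl (0.000115), -0.15 ± 0.16 in pif4-labelled (0.514) and -0.37 ± 0.16 in pklpif4-labelled libraries (0.0400). That last call was lost without WT replicate 1 (0.153), WT replicate 3 (0.126), pklpif4-labelled replicate 1 (0.153) or pklpif4-labelled replicate 2 (0.0774), and with plain library totals (0.0532). It was also lost without a filter on low counts (0.0549) and in limma on log2(FPKM + 1) (0.054) and log2(FPKM + 0.1) (0.0598).

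The G2-to-M cyclin CYCB1;1 (AT4G37490, chr4:17621886-17624285), widely used to mark dividing cells and also induced by DNA damage, had 2.87, 3.17 and 3.395 normalised CPM in pkl, 3.51, 3.67 and 3.399 in pif4-labelled, 2.90, 2.42 and 2.92 in pklpif4-labelled and 4.18, 4.66 and 3.19 in WT libraries. The lowest WT library fell inside the pkl range and below the pif4-labelled one. It fell in pklpif4-labelled libraries by 0.55 ± 0.17 on the log2 scale (adjusted p = 0.00481, and 0.0508 without WT replicate 2), while its log2 change in pkl was -0.36 ± 0.17 (0.0712). The more abundant CYCB1;2 was lower in the 3 mutants, by log2 changes of -0.47 ± 0.11 in pkl (0.000197), -0.31 ± 0.11 in pif4-labelled (0.0260) and -0.38 ± 0.11 in pklpif4-labelled libraries (0.00265). The pif4-labelled call was lost without WT replicate 2 (0.126) or 3 (0.0605), or without pif4-labelled replicate 1 (0.0867) or 2 (0.190). That call was also lost with plain library totals (0.0533) and in limma on log2(FPKM + 1) (0.0793) and log2(FPKM + 0.1) (0.0832). CYCB1;4 fell in pkl by 0.43 ± 0.15 on the log2 scale (0.0111), a call lost without WT replicate 3 (0.114) or pkl replicate 1 (0.0508).

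The sole B3-type cyclin, CYCB3;1 (AT1G16330, chr1:5582387-5587391), was scarce. It had 1.36, 1.78 and 1.00 normalised CPM in pkl, 1.88, 1.73 and 1.44 in pif4-labelled, 1.45, 1.23 and 1.56 in pklpif4-labelled and 1.57, 2.57 and 2.41 in WT libraries. One WT library sat near the mutants, and the pkl range overlapped it. As a log2 change this was -0.65 ± 0.25 in pkl (adjusted p = 0.0237) and -0.62 ± 0.25 in pklpif4-labelled libraries (0.0320), and adjusted p rose to 0.127 and 0.156 without WT replicate 2. The pkl call was also lost without WT replicate 3 (0.0819), pkl replicate 1 (0.0564) or pkl replicate 3 (0.155), and the pklpif4-labelled call without WT replicate 3 (0.103), pklpif4-labelled replicate 1 (0.0579) or pklpif4-labelled replicate 2 (0.123). In limma on log2(FPKM + 0.1) both were lost (0.0689 in pkl, 0.0761 in pklpif4-labelled libraries).

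The B2-class kinases, which act from G2 to M and are needed for an ordered shoot meristem, were lower in pklpif4-labelled libraries. CDKB2;1 (AT1G76540, chr1:28720328-28722521) had 7.51, 6.72 and 9.09 normalised CPM in pkl, 10.4, 9.82 and 8.36 in pif4-labelled, 6.88, 8.43 and 7.25 in pklpif4-labelled and 10.4, 11.2 and 12.9 in WT libraries. The pkl and pklpif4-labelled libraries lay below every WT library. Its log2 change was -0.56 ± 0.11 in pkl (adjusted p = 6.84e-06), -0.26 ± 0.11 in pif4-labelled (0.0534) and -0.61 ± 0.11 in pklpif4-labelled libraries (1.49e-06). It shares 44 exon bases with AT1G76530, so some of its reads cannot be assigned to one gene. CDKB2;2 (AT1G20930, chr1:7292568-7294746) had 4.90, 4.78 and 4.60 normalised CPM in pkl, 5.56, 5.33 and 5.01 in pif4-labelled, 3.36, 4.67 and 3.62 in pklpif4-labelled and 5.03, 6.19 and 5.24 in WT libraries. The pkl and pklpif4-labelled libraries lay below every WT library, and the test was passed in pklpif4-labelled ones alone of the mutants, with a log2 change of -0.49 ± 0.15 (0.00307) beside -0.20 ± 0.14 in pkl (0.243). The B1-class kinases had no call, with log2 changes of -0.42 ± 0.20 and -0.38 ± 0.25 in pkl.

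Most mitotic promoters held the core of the MSA element. Within 300 bases before the RefSeq gene start, AACGG on either strand (CCGTT as read on the gene's strand) stood in 11 of 18 mitotic genes, 5 of 7 KRPs, 1 of 2 A3-type and 1 of 10 D-type cyclins, and in 23.4% of 27443 promoters of the genome. At least 2 cores stood in 8 of the 18 and in 4.53% of all promoters. The E2F site in its forms TTTCCCGC and TTTGGCGC, on either strand, stood in 1 of the 38, CYCD3;3, and in 1.07% of all promoters. The first 3 B-type cyclins below have several cores and are shown for their different calls. CYCB2;2 and CYCB1;2 were lower in the 3 mutants, with pif4-labelled calls that some alternatives lost, while CYCB2;3 had no call against WT. The B3-type cyclin, which has none, comes after them (RefSeq sequence, TAIR10.1, 5′ to 3′ on the gene's strand, with MSA cores in capitals).
CYCB2;2 (chr4:16901296-16901595, plus strand): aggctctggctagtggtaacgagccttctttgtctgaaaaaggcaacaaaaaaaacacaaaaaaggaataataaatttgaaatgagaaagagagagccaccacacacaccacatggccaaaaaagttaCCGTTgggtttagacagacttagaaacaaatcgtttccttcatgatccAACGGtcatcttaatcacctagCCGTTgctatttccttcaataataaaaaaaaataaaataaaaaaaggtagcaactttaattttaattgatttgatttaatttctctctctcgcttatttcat
CYCB1;2 (chr5:1861704-1862003, minus strand): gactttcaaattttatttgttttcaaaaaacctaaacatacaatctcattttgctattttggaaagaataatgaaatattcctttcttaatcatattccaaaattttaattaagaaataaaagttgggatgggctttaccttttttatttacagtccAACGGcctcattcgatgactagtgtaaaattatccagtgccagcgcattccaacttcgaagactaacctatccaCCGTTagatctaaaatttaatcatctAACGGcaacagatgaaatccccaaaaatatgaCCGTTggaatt
CYCB2;3 (chr1:7137829-7138128, minus strand): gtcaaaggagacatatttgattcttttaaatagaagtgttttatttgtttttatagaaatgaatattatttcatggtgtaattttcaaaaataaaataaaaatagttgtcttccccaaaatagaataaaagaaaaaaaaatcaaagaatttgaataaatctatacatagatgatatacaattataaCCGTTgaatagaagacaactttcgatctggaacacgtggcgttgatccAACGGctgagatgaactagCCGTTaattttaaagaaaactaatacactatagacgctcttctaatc
CYCB3;1 (chr1:5587462-5587761, minus strand): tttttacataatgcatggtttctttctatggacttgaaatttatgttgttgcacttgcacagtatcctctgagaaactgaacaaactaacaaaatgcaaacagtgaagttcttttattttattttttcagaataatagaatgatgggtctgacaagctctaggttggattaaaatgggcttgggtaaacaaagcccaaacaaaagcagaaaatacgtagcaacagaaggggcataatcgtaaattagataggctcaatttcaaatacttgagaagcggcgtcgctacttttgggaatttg

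Above, CYCB2;2 and CYCB2;3 hold 3 cores each and CYCB1;2 holds 4, while CYCB3;1 without a core was lower in pkl and pklpif4-labelled libraries. Both calls of CYCB3;1 were lost in several fits without 1 library. Among all mitotic genes with at least 2 cores, 3 of 8 were lower in pkl, 2 of 8 in pif4-labelled and 4 of 8 in pklpif4-labelled libraries. Their median log2 change was -0.42 in pkl, -0.24 in pif4-labelled and -0.22 in pklpif4-labelled libraries. Among those with fewer, 5 of 10 were lower in pkl, 1 of 10 in pif4-labelled and 5 of 10 in pklpif4-labelled libraries. Their median was -0.43 in pkl, -0.11 in pif4-labelled and -0.31 in pklpif4-labelled libraries. Of all genes tested, 26.5% were lower in pkl, 16.2% in pif4-labelled and 27.7% in pklpif4-labelled libraries. A match is a description of letters, and some RefSeq starts lie well away from the first exon base of the count table.

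The inhibitors did not share a direction, and the largest increases were those of KRP3 and KRP5. In pkl 2 of 7 were higher and 2 lower, in pif4-labelled libraries 1 and 1, and in pklpif4-labelled libraries 3 and 2, with a median log2 change of 0.23 in pkl, -0.02 in pif4-labelled and 0.39 in pklpif4-labelled libraries. Of all genes tested, 53.6% were called in either direction in pkl, 32.5% in pif4-labelled and 54.8% in pklpif4-labelled libraries. KRP3 (AT5G48820, chr5:19792270-19794408) had 1.77, 1.56 and 1.09 normalised CPM in pkl, 0.385, 1.07 and 1.44 in pif4-labelled, 1.21, 1.23 and 1.20 in pklpif4-labelled and 0.742, 0.688 and 0.486 in WT libraries. The pkl and pklpif4-labelled libraries lay above every WT library, and the pif4-labelled ones were scattered on both sides. The fitted log2 change was 1.19 ± 0.34 in pkl (adjusted p = 0.00163), 0.57 ± 0.35 in pif4-labelled (0.226) and 0.91 ± 0.34 in pklpif4-labelled libraries (0.0195, and 0.0796 without WT replicate 3).

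KRP5 (AT3G24810, chr3:9060896-9061998), which acts in growth of the dark-grown hypocotyl and the root, had 1.42, 1.94 and 1.28 normalised CPM in pkl, 2.16, 1.85 and 2.53 in pif4-labelled, 1.93, 2.28 and 2.76 in pklpif4-labelled and 1.43, 1.20 and 1.297 in WT libraries. The pif4-labelled and pklpif4-labelled libraries lay above every WT library, and the pkl range overlapped that of WT. On the log2 scale the change was 0.23 ± 0.25 in pkl (adjusted p = 0.453), 0.73 ± 0.24 in pif4-labelled (0.0134) and 0.82 ± 0.24 in pklpif4-labelled libraries (0.00264). The pif4-labelled call was lost without pif4-labelled replicate 3 (0.0830) or WT replicate 2 (0.0524).

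The more abundant inhibitors changed by less. KRP2, a brake on lateral root initiation, ran from 11.0 to 12.8 normalised CPM in pkl and 11.97 to 13.5 in pklpif4-labelled libraries, against 9.30 to 10.11 in WT. It rose by a log2 of 0.27 ± 0.10 in pkl (adjusted p = 0.013, but 0.120 without pkl replicate 2 and 0.0582 without WT replicate 1) and of 0.39 ± 0.10 in pklpif4-labelled libraries (0.000303). KRP1 fell by 0.31 ± 0.10 on the log2 scale in pkl (0.00706, but 0.0963 without pkl replicate 1) and by 0.36 ± 0.10 in pklpif4-labelled libraries (0.00155). KRP6 fell by 0.36 ± 0.11 in pif4-labelled (0.00758, but 0.0974 without pif4-labelled replicate 2) and by 0.34 ± 0.11 in pklpif4-labelled libraries (0.00783), beside a log2 change of 0.02 ± 0.11 in pkl. KRP4, which in the shoot meristem is shared out with chromatin at division and scales the cycle to cell size, fell by 0.18 ± 0.06 in pkl (0.00473, but 0.0855 with plain library totals). The KRP4 call was also lost in limma on log2(FPKM + 1) (0.0753) and log2(FPKM + 0.1) (0.0744). KRP7 had no call against WT. The promoter of KRP1 held the most MSA cores of the 38, 6 in the 300 bases, with 1 adjoining pair, and is shown for comparison with the B-type cyclins above.
KRP1 (chr2:9978091-9978390, minus strand): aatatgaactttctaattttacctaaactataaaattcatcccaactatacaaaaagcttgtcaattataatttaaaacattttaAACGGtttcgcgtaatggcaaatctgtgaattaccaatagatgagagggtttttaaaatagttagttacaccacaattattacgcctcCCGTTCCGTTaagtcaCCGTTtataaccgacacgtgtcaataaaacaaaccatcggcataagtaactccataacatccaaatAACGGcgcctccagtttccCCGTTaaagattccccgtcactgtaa

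Comparing pklpif4-labelled with pkl libraries asks what differs between the double and the single pkl plants. Of the 38 genes, 6 were higher and 2 lower, where 19.5% of all genes were higher, 20.5% lower and 39.9% called. CYCD3;2 was the firmest of them, higher by a log2 of 0.24 ± 0.04 (adjusted p = 1.45e-08), and KRP4 was higher by 0.21 ± 0.06 (0.00141). With plain library totals 2 genes were higher and 3 lower, and the share of higher genes among all calls was 37.4% in place of 48.8%. The B1 and B2 cyclins CYCB1;4 and CYCB2;3, the S phase cyclin CYCA3;2 and KRP5 lost their calls in that setting. CYCD6;1 was lower by 0.51 ± 0.21 on the log2 scale (0.0459), a call lost without pkl replicate 1 (0.461), among others.

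Comparing pklpif4-labelled with pif4-labelled libraries asks what pkl changes where pif4 is also labelled mutant. Of the 38 genes, 6 were higher and 8 lower, where 25.5% of all genes were higher, 24.7% lower and 50.2% called. Among the 10 D-type cyclins 3 were higher and 3 lower, and among the 18 mitotic genes 1 was higher and 3 lower, with a median log2 change of -0.21. CYCD1;1 was lower by a log2 change of -0.45 ± 0.09 (adjusted p = 6.76e-06), CYCD6;1 by -1.13 ± 0.21 (1.54e-06) and CYCA1;1 by -0.54 ± 0.16 (0.00373, and 0.0520 without pklpif4-labelled replicate 3). CYCD4;2 was higher by 1.11 ± 0.32 (0.00192), CYCD3;2 by 0.20 ± 0.04 (7.30e-07) and KRP2 by 0.42 ± 0.10 (0.000144).

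Whether pkl shifted a gene differently beside pif4 than beside WT was tested as an interaction in the same model, with a positive value meaning a change less downward or more upward beside pif4. Of the 38 genes, 6 passed with a positive difference and 0 with a negative one, where 15.3% of all genes passed upward, 16.5% downward and 31.9% in either direction. The clearest was CYCD3;2, at a log2 difference of 0.50 ± 0.05 (adjusted p = 5.43e-15), followed by CYCA2;3 at 0.59 ± 0.15 (0.000692). Both genes were lower in each single mutant than in WT, and less low in pklpif4-labelled libraries than the sum of the single changes. CYCD3;1, in contrast, gave 0.10 ± 0.09 (0.454), and CYCD4;1 gave -0.58 ± 0.36 (0.221). The mitotic class had a median difference of 0.33, with 3 of 18 passing, and the D-type class 0.06, with 2 of 10. With plain library totals 2 of the 38 genes passed upward and 0 downward, and higher genes made up 31.1% of all calls, against 48.1% with TMM factors.

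Genes that act around the cyclins and CDKs were read from lists of known cell cycle genes. Their counts stand beside 53.6% of all genes called in pkl, 32.5% in pif4-labelled and 54.8% in pklpif4-labelled libraries, in nearly equal numbers higher and lower. Of 23 tested genes of mitosis and cytokinesis, 2 were higher and 15 lower in pkl, 0 higher and 9 lower in pif4-labelled, and 3 higher and 12 lower in pklpif4-labelled libraries. The median log2 change of the list was -0.32 in pkl, -0.24 in pif4-labelled and -0.29 in pklpif4-labelled libraries. The Aurora kinases AUR1 and AUR2, which act on the spindle and the division plane, changed by -0.84 ± 0.17 (adjusted p = 1.03e-05) and -0.67 ± 0.18 (0.000605) in pkl. The separase gene ESP was among those that rose, by 0.69 ± 0.13 in pklpif4-labelled libraries (5.24e-06).

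Most genes of DNA replication passed no test in the single mutants. Of 24 tested, 4 were higher and 3 lower in pkl, 1 higher and 3 lower in pif4-labelled, and 11 higher and 2 lower in pklpif4-labelled libraries. The median was 0.05 in pkl, 0.00 in pif4-labelled and 0.25 in pklpif4-labelled libraries. In pklpif4-labelled libraries ORC1B, a subunit of the origin recognition complex, rose by a log2 of 0.64 ± 0.14 (adjusted p = 3.64e-05), while TSO2, a ribonucleotide reductase subunit, fell by 0.70 ± 0.05 (4.85e-25). The MCM helicase genes MCM2, MCM4, MCM5, MCM6 and MCM7 were among the 11 that rose, named here after their values were seen.

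Of the 9 E2F, DP and RBR genes, 1 was higher and 2 lower in pkl, 0 higher and 2 lower in pif4-labelled, and 1 higher and 3 lower in pklpif4-labelled libraries. DEL2, an atypical E2F, had a log2 change of -1.77 ± 0.38 in pkl (adjusted p = 2.86e-05) and -0.86 ± 0.35 in pklpif4-labelled libraries (0.0306). RBR1, the retinoblastoma-related protein that D-type cyclins act on, was singled out after its values were seen and changed by -0.22 ± 0.05 in pkl (1.13e-05), -0.11 ± 0.05 in pif4-labelled (0.0423) and -0.36 ± 0.05 in pklpif4-labelled libraries (3.28e-11). Of 8 tested MYB3R and DREAM complex genes, 3 were higher and 1 lower in pkl, 0 higher and 1 lower in pif4-labelled, and 4 higher and 1 lower in pklpif4-labelled libraries. The largest change there was that of ALY1, a LIN-9-like member of the complex, at 0.83 ± 0.10 in pkl (6.94e-13). MYB3R4, an activator of mitotic genes, changed by -0.47 ± 0.14 in pif4-labelled libraries (0.00422).

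The anaphase-promoting complex, the ubiquitin ligase that destroys mitotic cyclins, had 16 genes tested with its activators. Of these 2 were higher and 6 lower in pkl, 1 higher and 2 lower in pif4-labelled, and 3 higher and 4 lower in pklpif4-labelled libraries. Taken in either direction, these shares are near or below those of all genes. The 6 of 16 lower in pkl stand above the 26.5% of all genes that were lower there. CDC20.1, an activator of the complex, changed by -0.60 ± 0.09 in pkl (adjusted p = 2.99e-09). Of 7 CDK activators and partners, 1 was higher and 2 lower in pkl, 0 and 0 in pif4-labelled, and 1 higher and 3 lower in pklpif4-labelled libraries. The CDK-activating kinase gene CDKD;1 rose by 0.88 ± 0.20 in pkl (0.000100) and 1.01 ± 0.20 in pklpif4-labelled libraries (9.03e-06), and CKS1, which docks CDKs on their substrates, fell by 0.37 ± 0.09 in pkl (0.000402). Of 14 listed SIM and SMR inhibitors, RefSeq paired name and identifier for 5, and the rest were left out whatever their level. Of the 5, 1 was higher and 1 lower in pkl, 1 and 1 in pif4-labelled, and 2 and 2 in pklpif4-labelled libraries. SMR1, which promotes endocycles, fell by 0.56 ± 0.07 in pkl (2.29e-12), where SIM rose by 0.23 ± 0.09 (0.0206). In pklpif4-labelled libraries the largest changes in that list were those of SMR7 at -2.06 ± 0.39 (3.14e-06) and SIM at 0.57 ± 0.09 (8.82e-09). Of 11 other cyclins, 4 were higher and 2 lower in pkl, 2 and 2 in pif4-labelled, and 4 and 2 in pklpif4-labelled libraries.

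**Figure D5:**
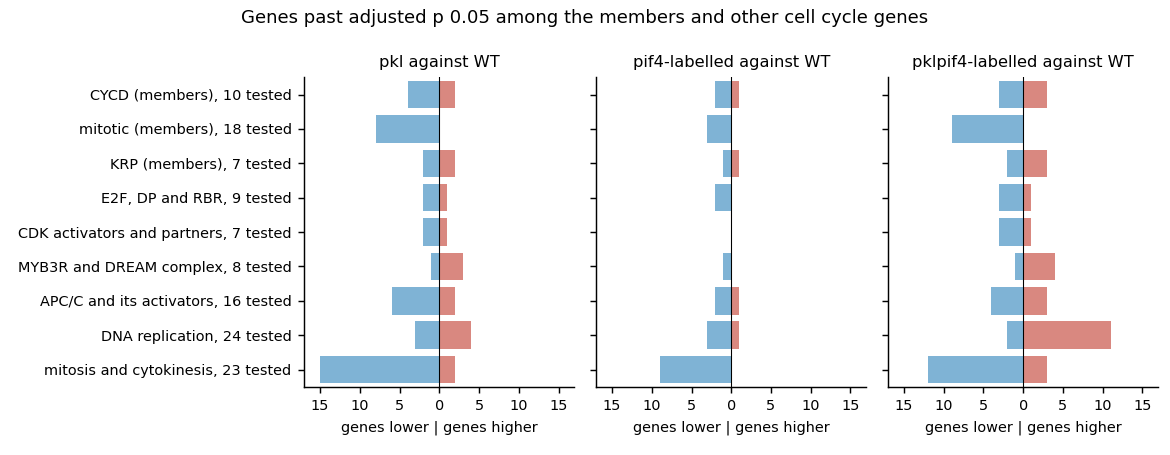
Number of genes higher (right) and lower (left) at an adjusted p under 0.05 against WT, for 3 classes of members and 6 lists of other cell cycle genes, in pkl, pif4-labelled and pklpif4-labelled libraries. Mitosis and cytokinesis genes were mostly lower, at 15 of 23 in pkl, while 11 of 24 replication genes were higher in pklpif4-labelled libraries.

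Regulators of organ size, whose proteins set how long cells go on dividing, gave 3 higher and 6 lower of 15 in pkl, 2 higher and 1 lower in pif4-labelled, and 8 higher and 3 lower in pklpif4-labelled libraries. AIL5 and AIL6, AP2-type factors of young tissue, rose in pklpif4-labelled libraries by a log2 of 2.65 ± 0.15 (adjusted p = 1.09e-30) and 2.44 ± 0.13 (1.41e-33). In pkl the largest changes were those of TCP15, a class I TCP factor, at -0.78 ± 0.07 (3.00e-17) and KLU, a cytochrome P450 that prolongs organ growth, at 0.71 ± 0.09 (2.34e-10).

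Markers of tissues that hold dividing cells did not share a direction. The counts below stand beside 53.6% of all genes called in pkl, 32.5% in pif4-labelled and 54.8% in pklpif4-labelled libraries. Of 9 stomatal lineage markers, 0 were higher and 9 lower in pkl, 0 and 0 in pif4-labelled, and 0 and 8 in pklpif4-labelled libraries. Their summed level was 34.4 to 37.3 normalised CPM in pkl, 60.1 to 63.2 in pif4-labelled, 33.3 to 35.05 in pklpif4-labelled and 62.1 to 65.8 in WT libraries, so pkl and pklpif4-labelled libraries stood apart from the rest, and none of the 9 was at 0 in any library. Of 8 tested shoot meristem markers, 0 were higher and 3 lower in pkl, 0 and 1 in pif4-labelled, and 1 and 3 in pklpif4-labelled libraries. Their median log2 change was 0.02 in pkl, 0.19 in pif4-labelled and 0.12 in pklpif4-labelled libraries. STM, which keeps that meristem, had the lowest value in pkl and pklpif4-labelled libraries. It changed by a log2 of -0.85 ± 0.18 in pkl (adjusted p = 3.35e-05) and -0.94 ± 0.18 in pklpif4-labelled libraries (5.96e-06). The 10 listed summed to 57.0 to 62.7 normalised CPM in pkl, 75.2 to 81.3 in pif4-labelled, 60.9 to 67.0 in pklpif4-labelled and 75.7 to 78.6 in WT libraries. CLV1, with 1246 to 2310 counts, and KNAT1, with 591 to 1163, weighed most in that sum. The stem cell genes WUS and CLV3 were at or near 0, with at most 4 and 8 counts in any library.

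Of 10 root meristem markers, 2 were higher and 2 lower in pkl, 7 and 1 in pif4-labelled, and 6 and 0 in pklpif4-labelled libraries. Their median log2 change was 0.10 in pkl, 0.31 in pif4-labelled and 0.71 in pklpif4-labelled libraries. Their summed level was 100.6 to 102.8 normalised CPM in pkl, 113 to 119 in pif4-labelled, 117 to 121 in pklpif4-labelled and 103 to 109 in WT libraries. SCR, with 1712 to 2773 counts, weighed most in that sum. PLT1, PLT2, BBM and WOX5 were scarce, with at most 52, 42, 53 and 25 counts in any library. The 6 root hair markers were higher in each mutant, with sums of 130 to 137 normalised CPM in pkl, 62.7 to 64.6 in pif4-labelled, 88.3 to 92.2 in pklpif4-labelled and 31.2 to 37.8 in WT libraries. Of 7 green leaf markers, 0 were higher and 7 lower in pkl, 0 and 5 in pif4-labelled, and 4 and 0 in pklpif4-labelled libraries, with sums of 25435 to 26174 normalised CPM in pkl, 29766 to 30143 in pif4-labelled, 35131 to 36040 in pklpif4-labelled and 32162 to 32817 in WT libraries. The 6 seed and embryo markers summed to 58.6 to 64.6 normalised CPM in pkl, 54.6 to 56.6 in pif4-labelled, 3847 to 3892 in pklpif4-labelled and 51.4 to 54.5 in WT libraries. Of these 6, 4 were higher and 2 lower in pkl, 3 and 2 in pif4-labelled, and 6 and 0 in pklpif4-labelled libraries. Their log2 changes ran from -3.89 to 2.54 in pkl and from -3.30 to 1.94 in pif4-labelled libraries, so the sums there hide opposite changes. The part of any of these cell types in the levels of the cyclins, CDKs and KRPs was not tested.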

How the data were processed

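RNA-seq was made from whole seedlings of 4 genotypes with 3 replicates each. Per the labels' protocols, poly(A) libraries were built with a TruSeq kit. Per the submitters' processing notes, HISAT2 2.1.0, SAMtools 1.6 and fastp were used with the build TAIR10. The authors deposited whole-number read counts per gene, with coordinates and exon length, and the FPKM values computed from them. Recomputing FPKM from these counts gave the deposited values within 4.35e-07. A second pair of tables, named for red light, holds 24 sample columns that were not used. Its counts are the same (0 of 403344 values differ), and so are its FPKM values. The values therefore cannot show which of the 2 named conditions they come from. Between 70.9% and 74.3% of counts from 1 to 8 were even in each library, so read pairs may have been counted by their ends and the number of molecules behind a low count may be smaller than the count.

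The counts were tested with edgeR 4.0.16 (R 4.3.3): TMM factors, filterByExpr (minimum count 10, total 15), a robust quasi-likelihood fit of all 12 libraries, and Benjamini-Hochberg adjustment over 22130 genes, with 0.05 as the threshold. CPM were computed with the TMM factors, and the SE of a log2 fold change is its size divided by the root of F. Every adjusted p comes from this fit unless another is named. DESeq2 1.42.0 and limma 3.58.1 (on log2 FPKM) were alternatives. The fit was tested on simulated data. Members named with full values passed the test with at least a 1.4-fold change against WT, except CYCD3;2, CYCA3;2 and CYCD7;1. These did not meet that rule and are also given in every library. Other members and genes are named to complete a class, and genes of other lists are among the 2 with the largest change past the threshold in a comparison, or are said to be chosen after their values were seen. The members and lists were chosen with earlier results of these data known. List entries whose name RefSeq does not pair with the identifier were left out. Promoters are RefSeq TAIR10.1 sequence, whose intron ends were GT-AG at 97.9% of 120610 introns of the count table. The replicates are labelled biological.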

Additional observations from a re-analysis of the deposited data

Results flagged for a closer look

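For 6 of the 38 genes, pkl changed the transcript differently in plants labelled pif4 than in plants not labelled pif4. This was tested by the interaction in edgeR (adjusted over 22130 genes). Of all genes tested, 31.9% passed that threshold in either direction and 15.3% upward. The 38 genes thus passed less often than genes in general, and upward about as often. CYCD3;2 had a log2 difference of 0.50 ± 0.05 (SE, adjusted p = 5.43e-15). CYCA2;3 had 0.59 ± 0.15 (0.000692). Both kept their call in each of the 21 alternatives that apply to the interaction. CYCB2;3 had 0.51 ± 0.18 (0.0233), CYCB1;2 had 0.40 ± 0.16 (0.0472), CYCD1;1 had 0.32 ± 0.12 (0.0364) and KRP4 had 0.22 ± 0.08 (0.0255). Each of these lost its call with plain library totals, in limma on either log2 FPKM scale and in several fits without 1 library. CYCB1;2 also lost it with DESeq2 (0.0554). Over the alternatives adjusted p reached 0.0933 for CYCB2;3, 0.166 for CYCB1;2, 0.137 for CYCD1;1 and 0.198 for KRP4. All of them rest on the labels of libraries in which the PIF4 transcript was higher than in WT. In pkl libraries that transcript was lower than in WT, by a log2 change of -0.61 ± 0.03 (edgeR, adjusted p = 2.33e-31).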

How the results depend on the processing

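Of 76 calls over the 38 genes and 6 comparisons, 42 held in all alternatives run for their comparison (22, or 21 for the interaction, which needs all 4 genotypes), 34 were lost in at least 1 and 0 changed direction. Of 591 counts and class medians recomputed, 25 moved. Against pkl, pklpif4-labelled libraries had 6 members higher, but 2 with plain library totals and 3 in limma on either log2 FPKM scale, and 3 to 6 when 1 library was left out. Members lower there numbered 2, but 1 with DESeq2, 1 with a replicate block and 1 when only the groups compared were fitted, and 0 to 3 when 1 library was left out. The interaction gave 6 upward, but 2 with library totals, 2 in limma on log2(FPKM + 1) and 2 on log2(FPKM + 0.1), with 3 to 6 upward and 0 to 1 downward when 1 library was left out. In pif4-labelled libraries against WT, leaving out 1 library gave 0 to 3 higher, 0 without WT replicate 2. The median log2 change in pkl of the D-type cyclins was -0.12 on log2(FPKM + 1). That of the mitotic genes was -0.36 with library totals, -0.22 on log2(FPKM + 1), -0.35 on log2(FPKM + 0.1) and -0.47 to -0.33 when 1 library was left out. On log2(FPKM + 1) the mitotic median was -0.096 in pif4-labelled and -0.20 in pklpif4-labelled libraries. The KRP median in pkl was 0.076 without pkl replicate 2 and up to 0.23. The cause of these shifts was not tested, although a pseudocount lowers changes of scarce genes by construction. Halving the counts was added after seeing the data.

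Replicate numbers did not pair the samples, with correlations of same-numbered libraries from -0.027 to 0.02. A replicate block gave 4 members higher and 16 lower in pkl, 2 and 6 in pif4-labelled, 6 and 15 in pklpif4-labelled libraries against WT, 6 and 1 against pkl, 6 and 7 against pif4-labelled libraries, and 6 and 0 in the interaction. Scarce genes such as CYCD7;1 and CYCA2;1 have wide errors at this depth.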
